A study of Homo sapiens with 32 samples.

Results

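NF-kB transcription factors are dimers built from a family of related subunits, and the 10 genes described here are the 5 subunit genes NFKB1, NFKB2, REL, RELA and RELB together with 5 genes that restrain or modulate them, NFKBIA, NFKBIE, BCL3, TNFAIP3 and BIRC3. The genes were chosen by symbol, with earlier results of these data known. All 10 were found in each of the 6 deposited count tables (of up to 57445 genes), and all 10 passed the filter on low counts in every comparison. RNA-seq was carried out on 4 human prostate cancer cell lines, each obtained from ATCC: LNCaP, its subline C4-2, 22Rv1 and PC3. The protease CSN5, product of the COPS5 gene, carries the active site of the COP9 signalosome, which takes NEDD8 off cullin-RING ubiquitin ligases. In the shRNA experiment, cells of each line carrying shCSN5 were set against cells carrying a scramble shRNA, with 2 libraries per group and 16 in all. In the inhibitor experiment, which also had 16 libraries in 8 groups of 2, cells given CSN5i-3, a small-molecule inhibitor of CSN5, were set against DMSO vehicle. The described dose was 5 µM in LNCaP and 22Rv1 and 10 µM in PC3, and the labels give no treatment time. For C4-2 the labels conflict: 2 libraries have C5i in the title but DMSO in the description, and 2 have NT in the title but CSN5i-3 (1 µM) in the description. They are grouped here by title and named so throughout, and grouping them by description turns the sign of every C4-2 inhibitor value. One further label conflicts with its sample's title: PC3 shCSN5 replicate 2 has a characteristic that names a drug treatment, while its title and description both give shCSN5, which was used. No allele, transgene or clone is named in the labels, and both the number of clones behind a shRNA line and the separateness of replicate cultures are not stated. The p-values therefore measure only the spread between these libraries, which may be technical.

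In resting cells NF-kB dimers are held in the cytoplasm by IkB proteins such as IkBα, the NFKBIA product, and IkBε, the NFKBIE product. Signals that activate IkB kinase cause IkB to be ubiquitylated by a cullin-RING ligase and degraded, after which RELA-containing dimers enter the nucleus. In the noncanonical branch, the NFKB2 precursor p100 is processed to p52, which pairs with RELB. NFKB1 encodes the precursor p105, which is processed to p50, the usual partner of RELA. NFKBIA, TNFAIP3 and BIRC3 are themselves well-known NF-kB target genes, so the pathway induces several of its own brakes. PC3 cells are known for constitutive NF-kB activity.

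To show the letters to which NF-kB dimers are known to bind, 4 promoters with such a match are printed in full over the 250 bases before the transcription start. Sequences are from RefSeq (GRCh38.p14), 5′ to 3′ on the gene's strand, and capitals mark each match to the κB consensus on either strand. A promoter entry was matched for 8 of the 10 genes (12 starts), namely all but RELB and NFKBIE. The BIRC3 window at chr11:102317234-102317483 (+ strand) held 2 matches, whose first bases lay 199 and 135 bases before the start. The NFKBIA window at chr14:35404750-35404999 (− strand) held 1, which began 81 bases before the start. The TNFAIP3 window at chr6:137867009-137867258 (+ strand) held 2, at 67 and 55 bases before the start. The window of the upstream NFKB1 start at chr4:102501109-102501358 (+ strand) held 1, at 49 bases before the start.
BIRC3: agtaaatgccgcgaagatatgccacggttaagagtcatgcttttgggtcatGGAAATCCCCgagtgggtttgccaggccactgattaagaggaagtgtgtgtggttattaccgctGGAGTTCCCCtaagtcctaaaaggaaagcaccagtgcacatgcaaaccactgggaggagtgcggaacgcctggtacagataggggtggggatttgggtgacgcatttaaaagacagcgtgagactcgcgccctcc
NFKBIA: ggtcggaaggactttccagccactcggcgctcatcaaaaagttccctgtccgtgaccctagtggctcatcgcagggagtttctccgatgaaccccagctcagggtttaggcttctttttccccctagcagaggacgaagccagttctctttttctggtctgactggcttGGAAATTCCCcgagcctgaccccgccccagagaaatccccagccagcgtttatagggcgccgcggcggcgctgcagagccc
TNFAIP3: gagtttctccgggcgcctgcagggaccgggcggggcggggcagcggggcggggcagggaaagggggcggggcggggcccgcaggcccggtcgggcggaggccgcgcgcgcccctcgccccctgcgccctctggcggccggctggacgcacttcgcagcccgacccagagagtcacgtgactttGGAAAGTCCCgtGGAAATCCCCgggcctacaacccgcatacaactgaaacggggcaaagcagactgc
NFKB1: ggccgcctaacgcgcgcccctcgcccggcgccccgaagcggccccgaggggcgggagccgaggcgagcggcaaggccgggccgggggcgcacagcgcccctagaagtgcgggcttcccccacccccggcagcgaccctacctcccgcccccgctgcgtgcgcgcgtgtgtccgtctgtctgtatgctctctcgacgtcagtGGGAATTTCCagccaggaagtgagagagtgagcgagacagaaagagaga

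A κB consensus match was found upstream of 6 of the 8 genes with an entry, at 7 of their 12 starts, against 9.96% of all 35116 RefSeq promoter windows of that length. Besides the genes printed, REL and NFKB2 held matches. Those at 47 and 46 bases before the REL start overlapped each other, as did those at 107 and 106 bases before one NFKB2 start. The windows of RELA and BCL3 held no match. A match describes the sequence and was not tested as a binding site.

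The shRNA libraries held 20607109 to 32473540 counts each, and those of the inhibitor experiment 29477194 to 50924252. The targeted gene checked the shRNA labels: levels are given in CPM, the counts per 1000000 counts of a library after scaling, and COPS5 stood at 2.897 and 1.79 CPM in LNCaP shCSN5 cells, against 53.4 and 52.7 CPM in LNCaP scramble cells, and fell in every line, by between 2.68 (22Rv1) and 4.50 (LNCaP) on the log2 scale. An enzyme inhibitor need not change its target's mRNA. With CSN5i-3, COPS5 rose in PC3 (log2 fold change 0.48) and gave 0.11 in LNCaP and 0.16 in 22Rv1, neither of which passed the test, and in the C4-2 libraries titled C5i it was lower (−0.38). Replicates differed most in LNCaP shCSN5 (chi-square per gene 71.3) and 22Rv1 CSN5i-3 (57.4), and least in PC3 DMSO (1.72), where a value of 1 would be sampling noise alone. KLK3, the gene of prostate-specific antigen, lay between 38.5 and 3864 CPM in the 24 libraries of LNCaP, C4-2 and 22Rv1 but between 0 and 0.0672 CPM in the 8 PC3 libraries. VIM, a mesenchymal marker, lay between 1182 and 1507 CPM in PC3 and between 3.21 and 27.8 CPM in the other lines, so the PC3 label fitted these markers. Read over the other lines together, they do not check the labels of LNCaP, C4-2 and 22Rv1 against each other. Marker levels are per library total, without TMM scaling. Of 7 leukocyte markers, CD3E and MS4A1 both had no counts in 9 of the 12 groups whose tables list them, and neither exceeded 0.0385 CPM in the others. The 4 groups of the LNCaP and C4-2 inhibitor tables do not list them, and those tables hold only genes that reach 3 counts in some library.

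Across the 8 comparisons of a treatment with its control, expression of the NF-kB genes was higher more often than lower: of 80 results, 49 passed the test as higher, 5 as lower and 26 did not pass. Because the 10 genes were chosen with earlier results of these data known, such tallies and medians describe them and do not test them as a set. Without the C4-2 inhibitor pair, whose labels conflict, 40 of 70 were higher and 4 lower. With that pair grouped by description, 41 of 80 were higher and 13 lower. The test was edgeR's quasi-likelihood test on the 4 libraries of a comparison, with Benjamini-Hochberg adjustment over all genes tested and a threshold of 0.05. Because so large a part of the transcriptome changed, each count is given with the share of all genes tested that passed. With shCSN5, 7 of the 10 genes rose in LNCaP, where 35.7% of all genes passed (18.3% higher and 17.4% lower). In C4-2, 4 rose, against 32% of all genes (15.7% higher and 16.2% lower). In 22Rv1, 5 rose and 2 fell, against 43.9% (22.6% higher and 21.3% lower). In PC3, 5 rose, against 16.7% (10.3% higher and 6.41% lower). CSN5i-3 gave 8 higher and 1 lower in LNCaP, against 52.6% of all genes (26.2% higher and 26.5% lower). It gave 3 higher in 22Rv1, against 24% (11.8% higher and 12.2% lower), and 8 higher and 1 lower in PC3, against 77.1% (38.5% higher and 38.5% lower). For the C4-2 libraries titled C5i against those titled NT, 9 were higher and 1 lower, against 74.9% (37% higher and 37.9% lower).

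With C4-2 grouped by title, the median log2 fold change of the 10 genes lay above that of all genes in each comparison. With shCSN5 it was 1.01 in LNCaP (all genes −0.007), 0.36 in C4-2 (all genes −0.021), 0.53 in 22Rv1 (all genes 0.020) and 0.74 in PC3 (all genes 0.036). With CSN5i-3 it was 1.06 in LNCaP (all genes 0.004), 0.36 in 22Rv1 (all genes −0.043) and 0.64 in PC3 (all genes −0.007), and for the titled C4-2 pair it was 1.298 (all genes −0.012). With the C4-2 inhibitor libraries grouped by title, RELB and BIRC3 rose in all 8 comparisons, TNFAIP3 in 7, NFKBIE in 6, NFKBIA and BCL3 in 5 each, RELA in 4 and REL in 3, while NFKB2 rose in 2 and fell in 2, and NFKB1 rose in 1 and fell in 2. Without that pair, RELB and BIRC3 rose in 7 of 7, TNFAIP3 in 6, NFKBIE in 5, NFKBIA and BCL3 in 4 each, RELA in 3 and REL in 2, while NFKB2 rose in 1 and fell in 2, and NFKB1 rose in 1 and fell in 1. Grouped by description, the pair counts as a fall for each of these genes except NFKB1, for which it counts as a rise. How many of all genes rose in as many comparisons was not counted, so these tallies have no share to be set against. These are bulk libraries, in which a change in the mix of cells and a change in RNA per cell cannot be told apart.

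**Figure D1:**
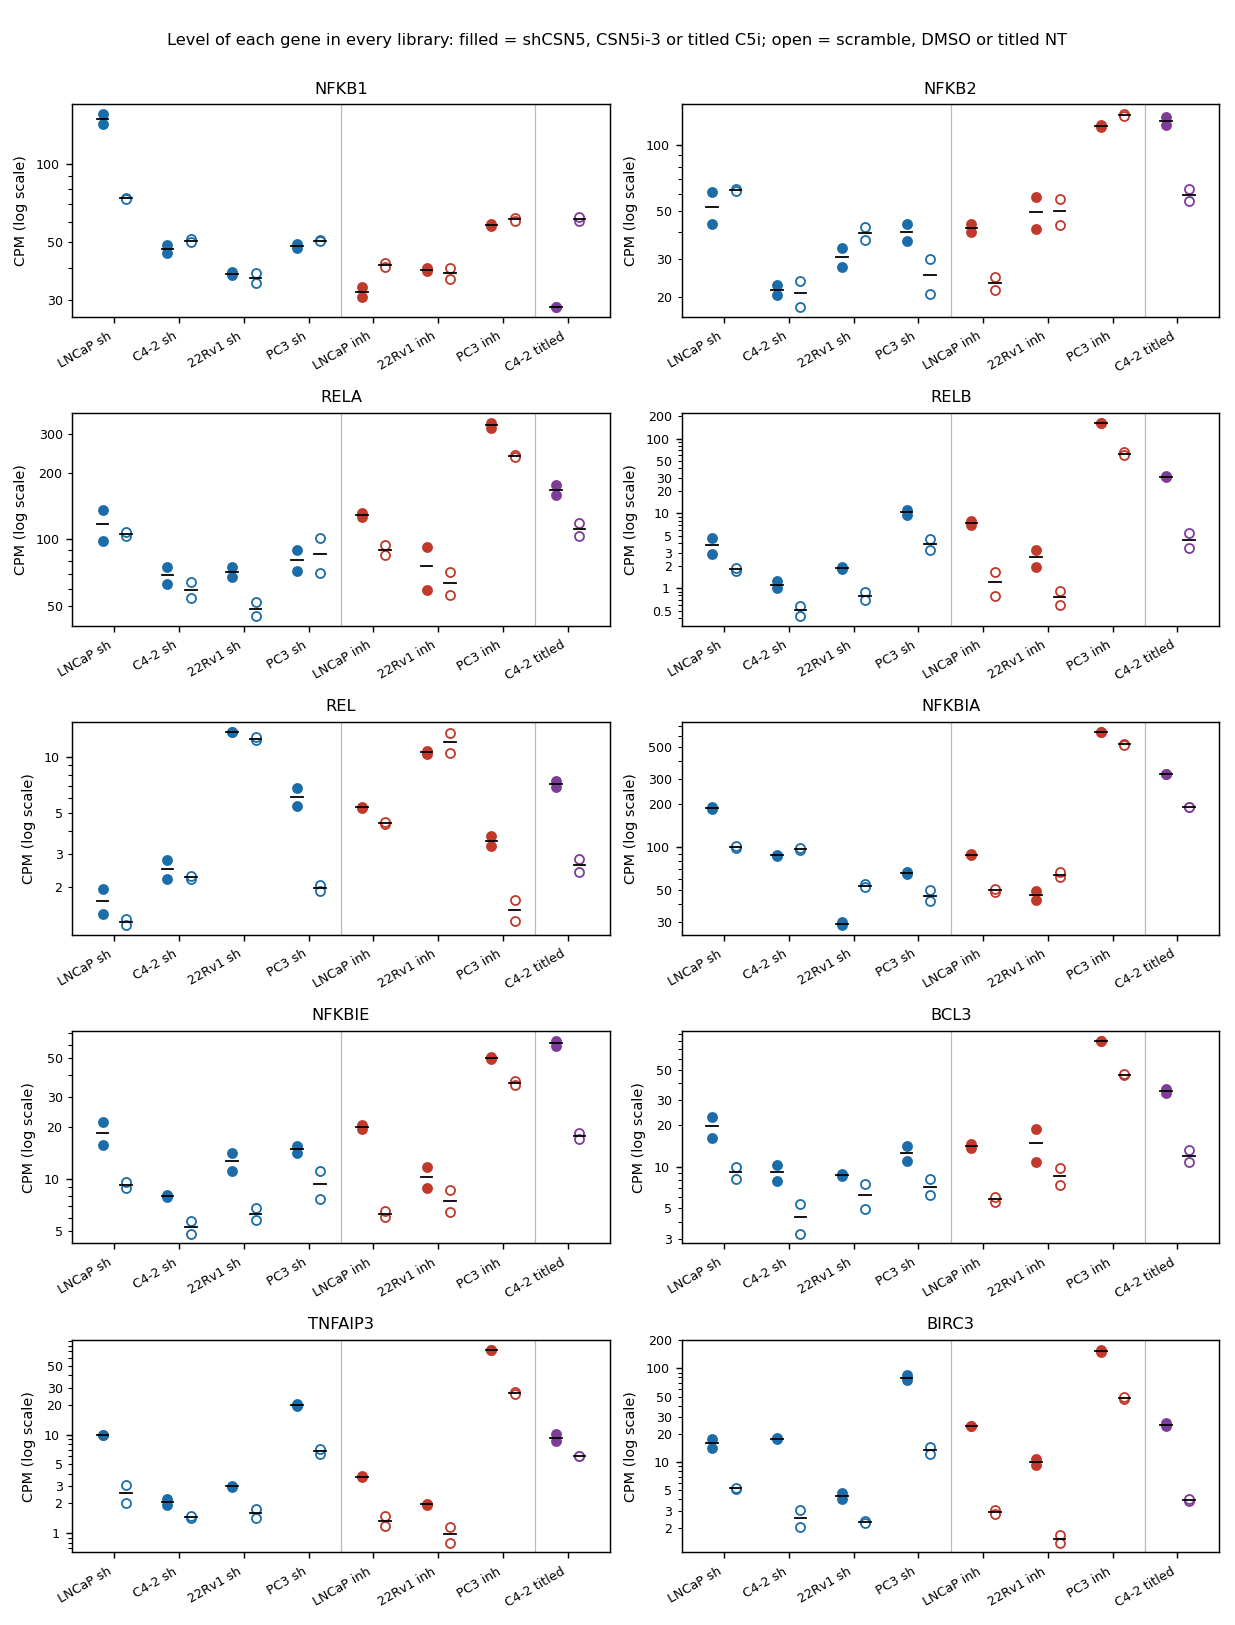
Level of each of the 10 genes in every library, in CPM (log scale), with the mean of each pair as a bar; filled points are shCSN5, CSN5i-3 or titled C5i libraries and open points scramble, DMSO or titled NT libraries (sh, shRNA experiment; inh, inhibitor experiment; titled, C4-2 grouped by title). RELB, NFKBIE, BCL3, TNFAIP3 and BIRC3 each have both filled points above both open points in all 8 pairs, whereas NFKB1 does so only in LNCaP shCSN5. In any 1 comparison, 30.4% to 43.2% of all genes tested have them so placed, and the share so placed in all 8 was not counted.

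Among the subunits, RELA, the transactivating partner of p50 in the canonical dimer, was abundant in all lines and changed by small folds. CSN5i-3 raised it in PC3, to 319 and 335 CPM against 239 and 234 CPM with DMSO (log2 fold change 0.46 ± 0.026, adjusted p = 1.24e-23). In LNCaP it stood at 131 and 126 CPM with CSN5i-3 and 85.3 and 94.4 CPM with DMSO, a change of 0.51 ± 0.076 (adjusted p = 0.0012). The C4-2 libraries titled C5i had 158 and 175 CPM, against 118 and 104 CPM in those titled NT (0.58 ± 0.089, adjusted p = 0.000107). In these 3 comparisons both libraries of the first group lay above both of the second, as they did for 43.2% (PC3), 38.7% (LNCaP) and 43.1% (titled C4-2 pair) of all genes tested. With shCSN5, RELA rose in 22Rv1 with 74.97 and 67.96 CPM, where scramble cells had 52.2 and 45.1 CPM, by 0.55 ± 0.101 (adjusted p = 0.00111). After a log2 fold change, ± gives its standard error (SE). The other comparisons did not pass the test. In LNCaP, shCSN5 replicate 1 and 2 had 98.4 and 136 CPM, on either side of the scramble values of 104 and 108 CPM. The estimate of 0.15 thus turned on which knockdown library was kept: −0.10 with replicate 1 alone, 0.37 with replicate 2 alone. In 22Rv1, the CSN5i-3 pair was likewise spread, at 92.6 and 59.5 CPM, against 56.1 and 71.3 CPM with DMSO.

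RELB, the subunit that pairs with p52 in the noncanonical pathway, rose in every comparison with C4-2 grouped by title. In LNCaP it had 7.87 and 7.06 CPM with CSN5i-3 and 0.788 and 1.65 CPM with DMSO (log2 fold change 2.602 ± 0.27, adjusted p = 0.000223). In 22Rv1 it had 3.27 and 1.89 CPM with CSN5i-3 and 0.593 and 0.931 CPM with DMSO (log2 fold change 1.77 ± 0.37, adjusted p = 0.0182). PC3 cells of the inhibitor experiment carried far more of it, 162 and 159.7 CPM with CSN5i-3 and 65.3 and 61.2 CPM with DMSO (log2 fold change 1.35 ± 0.033, adjusted p = 3.46e-41). The fold change was thus smaller in PC3 and the difference in CPM larger. The C4-2 libraries titled C5i had 30.2 and 31.5 CPM, against 5.44 and 3.43 CPM in those titled NT (log2 fold change 2.804 ± 0.17, adjusted p = 5.17e-08). With shCSN5, RELB had 2.897 and 4.66 CPM in LNCaP, against 1.73 and 1.84 CPM with scramble (log2 fold change 1.08 ± 0.28, adjusted p = 0.0289). In PC3 it had 9.67 and 11.1 CPM with shCSN5 and 3.28 and 4.57 CPM with scramble (log2 fold change 1.41 ± 0.21, adjusted p = 0.0164). Knockdown cells of 22Rv1 had 1.898 and 1.802 CPM, against 0.878 and 0.689 CPM with scramble (log2 fold change 1.24 ± 0.27, adjusted p = 0.00357). In C4-2 the values were 1.24 and 1.004 CPM with shCSN5 and 0.425 and 0.586 CPM with scramble (log2 fold change 1.15 ± 0.32, adjusted p = 0.0297). Several of these calls at low counts did not hold under alternatives: the C4-2 call was lost on leaving out any 1 of its 4 libraries (adjusted p = 0.0551 to 0.188), with DESeq2 (0.265) and without the filter (0.0617), the LNCaP shCSN5 call on leaving out scramble replicate 1 (0.123) or 2 (0.0818), and the 22Rv1 shCSN5 call with DESeq2 (0.106).

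REL, which encodes c-Rel, a subunit best known from lymphocytes, rose in 3 comparisons, 2 of them in PC3. PC3 shCSN5 cells had 6.77 and 5.47 CPM, against 2.05 and 1.92 CPM in PC3 scramble cells (log2 fold change 1.62 ± 0.19, adjusted p = 0.0101). PC3 cells given CSN5i-3 had 3.34 and 3.75 CPM, against 1.32 and 1.702 CPM with DMSO (log2 fold change 1.23 ± 0.17, adjusted p = 3.33e-09). In C4-2, libraries titled C5i had 7.47 and 6.91 CPM and those titled NT 2.84 and 2.397 CPM (log2 fold change 1.46 ± 0.16, adjusted p = 8.91e-06). In 22Rv1, the line with the highest REL, the values were 13.5 and 13.6 CPM with shCSN5 and 12.3 and 12.8 CPM with scramble (log2 fold change 0.11 ± 0.13, adjusted p = 0.503). With CSN5i-3 the same line had 10.4 and 10.8 CPM, against 13.4 and 10.52 CPM with DMSO (log2 fold change −0.18 ± 0.201, adjusted p = 0.568). LNCaP and C4-2 shCSN5 did not pass the test either (0.38 and 0.15), nor did LNCaP CSN5i-3 (0.28 ± 0.12, adjusted p = 0.0895).

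NFKB1 moved in both directions. In LNCaP, shCSN5 cells had 156 and 143 CPM, against 73.99 and 73.6 CPM with scramble (log2 fold change 1.02 ± 0.13, adjusted p = 0.00239). In the same line CSN5i-3 gave 30.9 and 33.8 CPM, against 41.5 and 40.1 CPM with DMSO (log2 fold change −0.34 ± 0.082, adjusted p = 0.0115). Libraries of C4-2 titled C5i had 28.1 and 28.2 CPM, against 60.2 and 62.8 CPM in those titled NT (log2 fold change −1.13 ± 0.087, adjusted p = 4.5e-07). NFKB1 was thus higher in LNCaP knockdown cells, and lower in the inhibitor-treated LNCaP and titled C5i libraries, than in their controls. Grouped by description, the C4-2 pair would give a rise. In the other 5 comparisons the log2 fold change lay between −0.11 (C4-2 shCSN5) and 0.052 (22Rv1 shCSN5) and did not pass the test. The LNCaP shCSN5 call was lost without scramble replicate 1 (adjusted p = 0.0667) or 2 (0.0715), at estimates of 1.01 each, and the LNCaP CSN5i-3 call without CSN5i-3 replicate 1 (−0.28, adjusted p = 0.144).

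NFKB2 rose in 2 comparisons, LNCaP with CSN5i-3 and the titled C4-2 pair, and the second is a fall if that pair is grouped by description. LNCaP cells given CSN5i-3 had 43.3 and 39.9 CPM, against 21.6 and 24.8 CPM with DMSO (log2 fold change 0.84 ± 0.097, adjusted p = 0.000373). The C4-2 libraries titled C5i had 124 and 136 CPM, against 62.9 and 55.3 CPM in those titled NT (log2 fold change 1.14 ± 0.091, adjusted p = 5.94e-07). It fell slightly in PC3 with CSN5i-3, at 121 and 124 CPM against 139.5 and 137 CPM with DMSO (log2 fold change −0.17 ± 0.030, adjusted p = 6.23e-07). A small fall was also found in 22Rv1 shCSN5 cells, at 33.8 and 27.5 CPM against 42.1 and 36.8 CPM with scramble (log2 fold change −0.36 ± 0.12, adjusted p = 0.0345). That call was lost with total counts in place of TMM scaling (adjusted p = 0.0892), with a spread shared by the 16 knockdown libraries (0.22), and without shCSN5 replicate 2 (0.291) or scramble replicate 1 (0.0794). LNCaP shCSN5 cells were spread over 43.3 and 61.2 CPM, against 62.7 and 61.9 CPM with scramble (log2 fold change −0.25, adjusted p = 0.345). This did not pass the test, and over the alternatives the estimate ran from −0.523 to −0.017. Nor did C4-2 shCSN5 (0.052, adjusted p = 0.846) or 22Rv1 CSN5i-3 (−0.011, adjusted p = 0.979) pass. In PC3 shCSN5 cells NFKB2 had 36.4 and 43.3 CPM, against 20.7 and 29.9 CPM with scramble (log2 fold change 0.66 ± 0.21, adjusted p = 0.0836). This missed the threshold, and passed it with DESeq2 (adjusted p = 0.0328), with the replicate block (0.000192), without the filter (0.000967), with the spread shared by the knockdown libraries (0.03) and without scramble replicate 2 (5.1e-05).

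Over the 8 comparisons, the log2 fold changes of NFKB1 and NFKB2 had a Pearson correlation of −0.754 (Spearman −0.857), and those of NFKB1 and RELB one of −0.769 (Spearman −0.667). NFKB2 and RELB correlated at 0.844. Without LNCaP shCSN5 and the titled C4-2 pair, the points farthest out on NFKB1, the 6 others gave −0.769 for NFKB2 and −0.732 for RELB. Leaving out the titled C4-2 pair alone gave −0.541 for NFKB2 and −0.545 for RELB over 7 comparisons, and grouping it by description −0.764 and −0.769 over 8. The points are comparisons and not independent samples, only 1 of the 6 others has an NFKB1 change that passed the test, and the correlations are given as a description.

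**Figure D2:**
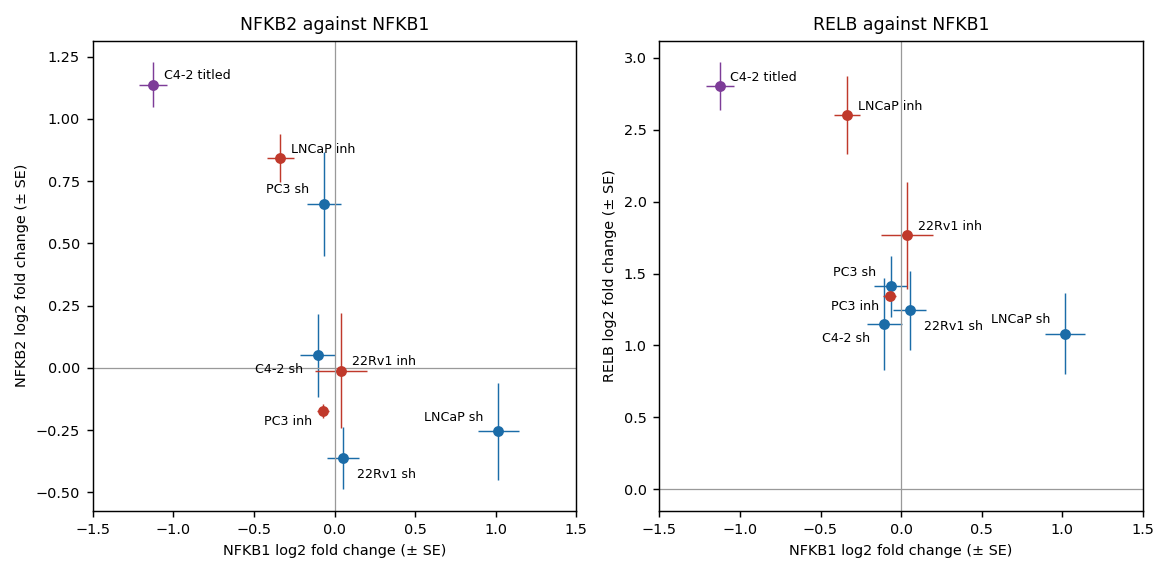
Log2 fold change of NFKB2 (left) and RELB (right) against that of NFKB1 in the 8 comparisons, with SE bars (blue, shRNA; red, CSN5i-3; purple, C4-2 grouped by title). The titled C4-2 pair and LNCaP CSN5i-3 lie at the upper left, with NFKB1 lower and NFKB2 and RELB higher, and LNCaP shCSN5 lies alone at the right, with NFKB1 higher by 1.02.

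Of the inhibitors, NFKBIA had the highest level per kilobase of exon in 15 of the 16 groups, RELA taking its place in 22Rv1 shCSN5 cells. Its response differed between the lines. LNCaP shCSN5 cells had 189.8 and 186 CPM, against 99.3 and 102 CPM with scramble (log2 fold change 0.898 ± 0.12, adjusted p = 0.00284). LNCaP cells given CSN5i-3 had 88.97 and 88.4 CPM, against 48.8 and 50.97 CPM with DMSO (log2 fold change 0.83 ± 0.070, adjusted p = 8.1e-05). In LNCaP, then, NFKBIA rose with either treatment. In 22Rv1 it fell with shCSN5, to 29.8 and 28.5 CPM against 54.8 and 52.6 CPM with scramble (log2 fold change −0.88 ± 0.096, adjusted p = 3.2e-05). With CSN5i-3, 22Rv1 cells had 49.2 and 42.9 CPM, against 61.3 and 66.7 CPM with DMSO (log2 fold change −0.48 ± 0.16, adjusted p = 0.0757), which did not pass the test. Both treated libraries lay below both controls, as they did for 33.2% of all genes tested. PC3 cells showed smaller rises: 637 and 641 CPM with CSN5i-3 and 524 and 523 CPM with DMSO (log2 fold change 0.29 ± 0.023, adjusted p = 2.96e-17). Their knockdown gave 64.4 and 67.3 CPM, against 41.7 and 49.8 CPM with scramble (log2 fold change 0.53 ± 0.13, adjusted p = 0.046). C4-2 shCSN5 cells had 88.2 and 86.8 CPM, against 95.8 and 98.2 CPM with scramble, which did not pass the test (−0.15 ± 0.093, adjusted p = 0.261), whereas the libraries titled C5i had 323 and 326 CPM and those titled NT 192 and 191 CPM (0.76 ± 0.066, adjusted p = 1.22e-06). The LNCaP shCSN5 call was lost without scramble replicate 1 (adjusted p = 0.116) or 2 (0.0983), and the PC3 shCSN5 call without shCSN5 replicate 1 (0.185), shCSN5 replicate 2 (0.235) or scramble replicate 1 (0.0512).

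NFKBIE and BCL3 fell in no comparison that passed the test. NFKBIE averaged 20.1 ± 0.789 CPM in LNCaP cells given CSN5i-3 and 6.32 ± 0.343 CPM with DMSO (SD, n = 2 each), a log2 fold change of 1.67 ± 0.099 (adjusted p = 1.56e-05). Of the titled C4-2 libraries, those titled C5i averaged 61.1 ± 3.01 CPM and those titled NT 17.8 ± 1.02 CPM (1.78 ± 0.095, adjusted p = 2.25e-08). In PC3 the rise was smaller, 0.48 ± 0.043 (adjusted p = 5.84e-15). With shCSN5 it rose by 1.01 ± 0.17 (adjusted p = 0.000588) in 22Rv1, 1.001 ± 0.204 (adjusted p = 0.013) in LNCaP and 0.59 ± 0.16 (adjusted p = 0.0276) in C4-2, while PC3 shCSN5 (0.67 ± 0.22, adjusted p = 0.0877) and 22Rv1 CSN5i-3 (0.46 ± 0.24, adjusted p = 0.217) did not pass. Its LNCaP shCSN5 call was lost without either scramble library (adjusted p = 0.153 without replicate 1 and 0.0941 without replicate 2), and its C4-2 call without any 1 of shCSN5 replicates 1 and 2 and scramble replicate 1 (0.0827 to 0.143), with the replicate block (0.0636), with DESeq2 (0.0956) and without the filter (0.0642). The PC3 shCSN5 estimate passed with the replicate block (adjusted p = 0.00142), without the filter (0.00748), with the shared spread (0.0249) and without scramble replicate 2 (0.000934).

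BCL3 encodes a nuclear IkB protein that binds p50 and p52 dimers and can act as a coactivator. It averaged 80.6 ± 0.0116 CPM in PC3 cells given CSN5i-3 and 45.9 ± 0.307 CPM with DMSO (0.81 ± 0.037, adjusted p = 1.21e-27). In LNCaP it averaged 14.1 ± 0.774 CPM with CSN5i-3 and 5.801 ± 0.296 CPM with DMSO (1.28 ± 0.11, adjusted p = 7.84e-05). Among C4-2 libraries, those titled C5i averaged 35.05 ± 1.81 CPM and those titled NT 11.99 ± 1.66 CPM (1.55 ± 0.11, adjusted p = 3.23e-07). With shCSN5 it rose in LNCaP (1.095 ± 0.23, adjusted p = 0.0137) and C4-2 (1.07 ± 0.25, adjusted p = 0.0153), calls that were lost without scramble replicate 1 of the line (adjusted p = 0.145 in LNCaP and 0.119 in C4-2) and, in C4-2, without the filter (0.0745). In 22Rv1 (0.495 ± 0.19, adjusted p = 0.0538) and PC3 (0.81 ± 0.21, adjusted p = 0.0543) the knockdown estimate was positive and missed the threshold. In 22Rv1 it passed with the replicate block (adjusted p = 0.000203), without the filter (0.0139) and without scramble replicate 1 (0.00183). In PC3 it passed with total counts (0.0409), DESeq2 (0.027), no filter (0.000964), the replicate block (0.000264) and the shared spread (0.042), and without shCSN5 replicate 1 (0.0328), scramble replicate 1 (0.0242) or scramble replicate 2 (0.000639). The 22Rv1 CSN5i-3 libraries were spread over 18.7 and 10.8 CPM, against 7.32 and 9.73 CPM with DMSO (0.79 ± 0.305, adjusted p = 0.11), and without CSN5i-3 replicate 2 the estimate of 1.09 passed (adjusted p = 0.000236).

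**Figure D3:**
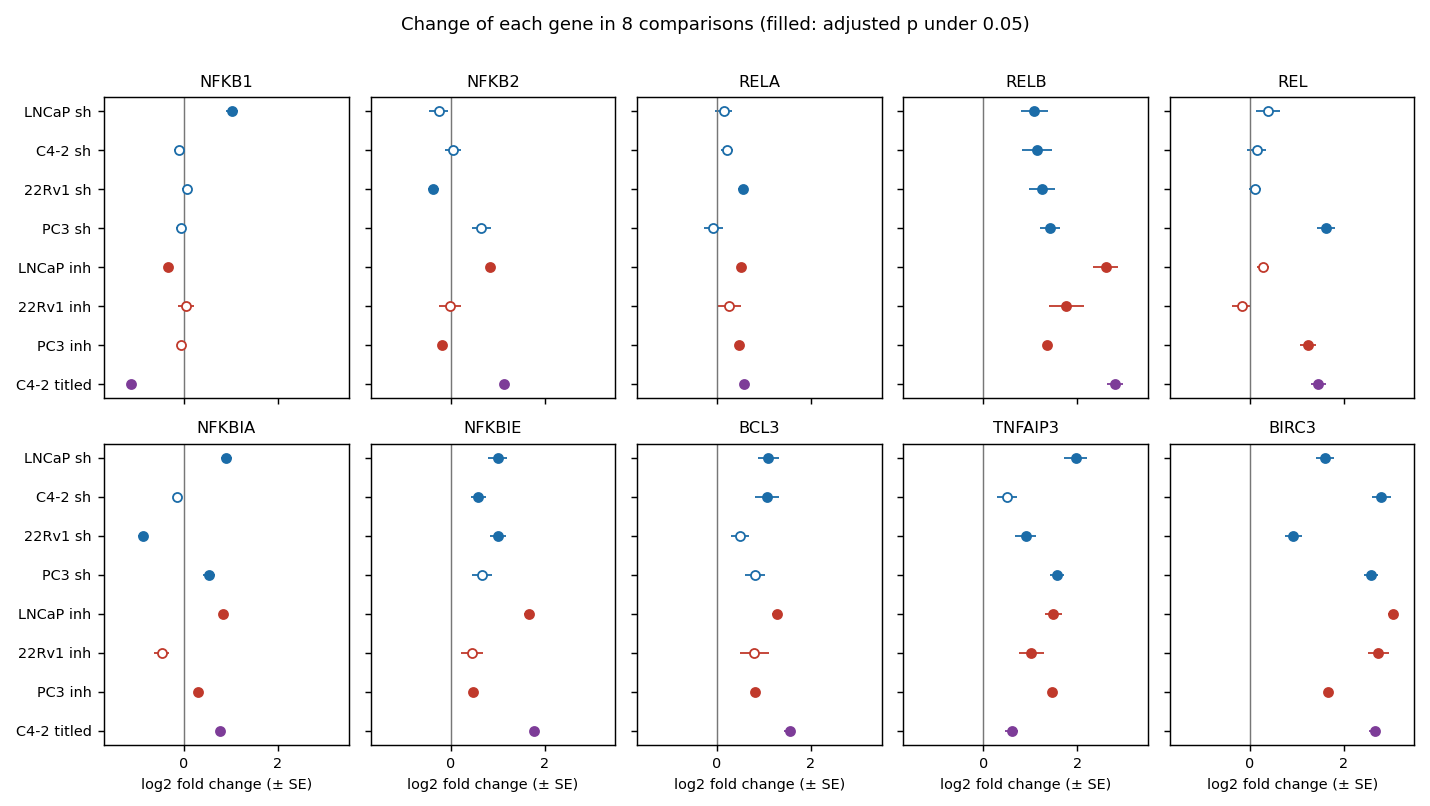
Log2 fold change with SE of each of the 10 genes in the 8 comparisons; filled points passed the test at an adjusted p under 0.05 and open points did not. RELB and BIRC3 are filled and to the right in all 8 rows, NFKBIA is to the left in 22Rv1 shCSN5, and NFKB1 has filled points on both sides of 0.

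TNFAIP3 encodes A20, a ubiquitin-editing enzyme that shuts off signalling from TNF and Toll-like receptors to IkB kinase. PC3 cells had 72.9 and 72.1 CPM with CSN5i-3 and 27.2 and 25.8 CPM with DMSO (log2 fold change 1.45 ± 0.043, adjusted p = 5.31e-37). PC3 shCSN5 cells had 19.6 and 20.4 CPM, against 6.397 and 7.14 CPM with scramble (log2 fold change 1.57 ± 0.15, adjusted p = 0.00595). LNCaP shCSN5 cells had 9.97 and 9.93 CPM, against 3.07 and 2.02 CPM with scramble (log2 fold change 1.96 ± 0.24, adjusted p = 0.00226), and LNCaP cells given CSN5i-3 had 3.71 and 3.77 CPM, against 1.4995 and 1.17 CPM with DMSO (1.49 ± 0.18, adjusted p = 0.000509). 22Rv1 had low levels: 1.996 and 1.95 CPM with CSN5i-3 and 0.799 and 1.16 CPM with DMSO (1.02 ± 0.27, adjusted p = 0.0371). Its knockdown gave 3.02 and 2.95 CPM, against 1.41 and 1.77 CPM with scramble (0.898 ± 0.22, adjusted p = 0.00611). Neither 22Rv1 call was made by DESeq2 (adjusted p = 0.0914 with CSN5i-3 and 0.124 with shCSN5), and the CSN5i-3 call was lost without DMSO replicate 1 (0.2). C4-2 had the smallest changes, 0.61 ± 0.14 (adjusted p = 0.00188) for the titled pair and 0.51 ± 0.21 (adjusted p = 0.113), which did not pass, with shCSN5.

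BIRC3 encodes cIAP2, a ubiquitin ligase of TNF receptor complexes that, with its paralog BIRC2, also marks the noncanonical kinase NIK for degradation. With C4-2 grouped by title it rose in all 8 comparisons and gave the largest estimate of the 10 genes in 5 of them. LNCaP cells had 24.1 and 24.02 CPM with CSN5i-3 and 3.08 and 2.79 CPM with DMSO (log2 fold change 3.04 ± 0.11, adjusted p = 1.51e-06). In 22Rv1 the values were 9.28 and 10.9 CPM with CSN5i-3 and 1.65 and 1.38 CPM with DMSO (log2 fold change 2.73 ± 0.22, adjusted p = 0.00105). PC3 had 159 and 149 CPM with CSN5i-3 and 47.7 and 49.4 CPM with DMSO (log2 fold change 1.66 ± 0.035, adjusted p = 2.07e-44). The treated libraries lay above their controls in each of these lines, as they did for 38.7% (LNCaP), 30.4% (22Rv1) and 43.2% (PC3) of all genes tested. C4-2 libraries titled C5i had 25.9 and 24.1 CPM, against 3.88 and 4.06 CPM in those titled NT (log2 fold change 2.65 ± 0.12, adjusted p = 5.21e-09). Knockdown in C4-2 gave 17.6 and 17.99 CPM, against 3.05 and 2.05 CPM with scramble (log2 fold change 2.796 ± 0.203, adjusted p = 0.000111). PC3 shCSN5 cells had 84.03 and 75.4 CPM, against 14.6 and 12.1 CPM with scramble (log2 fold change 2.57 ± 0.15, adjusted p = 0.00255). LNCaP shCSN5 cells had 17.7 and 14.2 CPM, against 5.18 and 5.32 CPM with scramble (log2 fold change 1.605 ± 0.19, adjusted p = 0.00197). The knockdown response was smallest in 22Rv1, 4.66 and 4.04 CPM with shCSN5 and 2.34 and 2.24 CPM with scramble (log2 fold change 0.93 ± 0.19, adjusted p = 0.00226). Every one of these 8 calls was kept under each alternative scaling, filter, tool, block and left-out library. BIRC2 rose in LNCaP with CSN5i-3 by 0.74 ± 0.100 (adjusted p = 0.0008).

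The shRNA libraries of all 4 lines were also fitted together. Averaged over the lines, 6 of the 10 genes rose with shCSN5 and 4 did not pass the test, against 34.2% of all genes (19.5% higher and 14.7% lower). They were BIRC3 (2.03 ± 0.22, adjusted p = 8.29e-06), TNFAIP3 (1.31 ± 0.18, adjusted p = 5.76e-05), RELB (1.24 ± 0.14, adjusted p = 1.4e-05), BCL3 (0.88 ± 0.15, adjusted p = 0.000395), NFKBIE (0.83 ± 0.12, adjusted p = 7.67e-05) and REL (0.57 ± 0.19, adjusted p = 0.0278). The REL call was lost without PC3 scramble replicate 1 (adjusted p = 0.0712) or 2 (0.0636), and with the replicate block (0.0772). The effect differed among the lines for 6 genes, against 38.8% of all genes, by a joint test of the line by treatment terms. LNCaP and PC3 share a table, and 22Rv1 and C4-2 share another. Between lines of separate tables, the table and the line cannot be told apart in this test. The adjusted p was 1.09e-06 for NFKBIA, 4.78e-05 for NFKB1, 0.00039 for BIRC3, 0.00156 for REL, 0.00472 for TNFAIP3 and 0.0365 for NFKB2. The NFKB2 call was lost on leaving out any 1 of 11 of the 16 libraries (0.0539 to 0.199): LNCaP scramble 1 and 2, C4-2 shCSN5 1 and 2, both shCSN5 and both scramble libraries of 22Rv1, and PC3 shCSN5 1 and 2 and scramble 1.

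Differences between pairs of lines were tested for shCSN5 within a table, and for CSN5i-3 across the separate LNCaP and 22Rv1 tables, where the table and the line cannot be told apart. The shCSN5 effect in PC3 minus that in LNCaP passed for 3 genes, against 24.1% of all genes (11% higher and 13.1% lower). It was 1.19 ± 0.31 (adjusted p = 0.027) for REL and 0.91 ± 0.22 (adjusted p = 0.0217) for BIRC3, which both responded more in PC3, and −1.14 ± 0.13 (adjusted p = 0.000825) for NFKB1, which passed as higher in LNCaP and did not pass in PC3. The REL difference was lost with DESeq2 (adjusted p = 0.106) and on leaving out LNCaP shCSN5 2, LNCaP scramble 1 or 2, or PC3 shCSN5 1 (0.0508 to 0.111), and the BIRC3 difference on leaving out LNCaP scramble 1 or 2 or PC3 shCSN5 1 (0.0572 to 0.0942). The effect in 22Rv1 minus that in C4-2 passed for 2 genes, against 13.3% (5.53% higher and 7.76% lower): BIRC3 (−1.897 ± 0.26, adjusted p = 0.00232) and NFKBIA (−0.76 ± 0.103, adjusted p = 0.00234). At the matched dose of 5 µM, the CSN5i-3 effect in LNCaP minus that in 22Rv1 passed for 2 genes, against 17.6% (6.34% higher and 11.3% lower): NFKBIA (1.27 ± 0.15, adjusted p = 0.00162) and NFKBIE (1.18 ± 0.27, adjusted p = 0.0248). The NFKBIE difference was lost without any 1 of the 4 LNCaP libraries (adjusted p = 0.0764 to 0.0971) and with the replicate block (0.143). For RELB, whose effects were 2.602 in LNCaP and 1.77 in 22Rv1, the difference of 0.81 ± 0.58 (adjusted p = 0.394) did not pass. PC3 received 10 µM and was not compared.

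Inhibitor and knockdown were compared within a line as the CSN5i-3 effect minus the shCSN5 effect, across tables made in separate experiments. In LNCaP 3 genes passed, against 24.5% of all genes (9.14% higher and 15.3% lower). The difference was −1.39 ± 0.14 (adjusted p = 0.000774) for NFKB1, 1.39 ± 0.198 (adjusted p = 0.00303) for BIRC3 and 1.06 ± 0.23 (adjusted p = 0.0148) for NFKB2. The NFKB2 call was lost on leaving out any 1 of CSN5i-3 1 and 2, DMSO 1 and 2 and scramble 1 and 2 (adjusted p = 0.0582 to 0.0996). In 22Rv1 only BIRC3 passed (1.82 ± 0.26, adjusted p = 0.0118), against 4.28% (2.38% higher and 1.9% lower), and its call was lost without any 1 of the 4 shRNA libraries (0.0647 to 0.0825) and with the replicate block (0.111). In PC3 2 genes passed, against 39.1% (20.5% higher and 18.6% lower): BIRC3 (−0.84 ± 0.15, adjusted p = 0.00382) and NFKB2 (−0.77 ± 0.21, adjusted p = 0.0244). BIRC3 thus responded more to the inhibitor than to the knockdown in LNCaP and 22Rv1, and less in PC3. The NFKB2 call in PC3 was lost on leaving out CSN5i-3 1 or 2, DMSO 1 or 2 or shCSN5 2 (0.059 to 0.0738). The difference for RELB in LNCaP, 1.48 ± 0.47 (adjusted p = 0.0552), missed the threshold, and in PC3 it was −0.0023 ± 0.14 (adjusted p = 0.993).

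**Figure D4:**
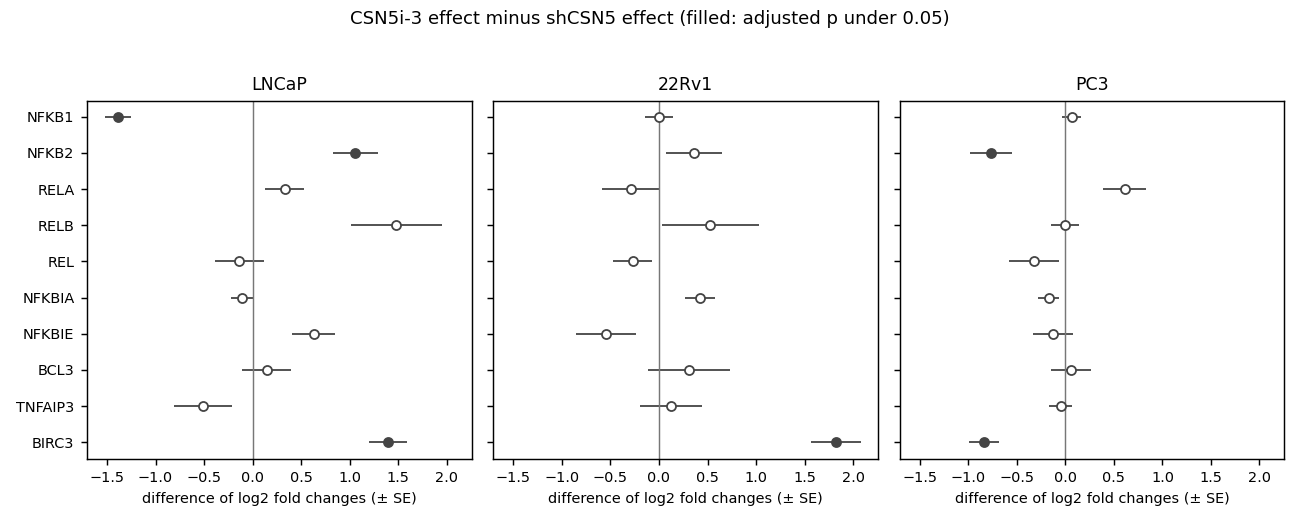
CSN5i-3 effect minus shCSN5 effect on the log2 scale, with SE, for the 10 genes in LNCaP, 22Rv1 and PC3; filled points passed the test at an adjusted p under 0.05. BIRC3 is filled in all 3 lines, to the right of 0 in LNCaP and 22Rv1 and to the left in PC3, and NFKB1 is filled at −1.39 in LNCaP.

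Levels in the scramble shRNA libraries were also compared between lines, where the shares of the 10 genes that passed were below those of all genes. Among them, PC3 against LNCaP gave 4 genes higher and 3 lower, where 79.7% of all genes passed (41.6% higher and 38.2% lower). TNFAIP3 (1.32 ± 0.23, adjusted p = 0.00252), BIRC3 (1.27 ± 0.15, adjusted p = 0.000618), RELB (1.04 ± 0.22, adjusted p = 0.0063) and REL (0.53 ± 0.19, adjusted p = 0.0428) were higher in PC3, and NFKB2 (−1.39 ± 0.18, adjusted p = 0.000863), NFKBIA (−1.22 ± 0.12, adjusted p = 0.000216) and NFKB1 (−0.63 ± 0.087, adjusted p = 0.00105) were lower. The REL call was lost with DESeq2 (adjusted p = 0.329), the replicate block (0.0883) and no filter (0.0613), and without LNCaP scramble 1 or 2 or PC3 scramble 1 (0.18 to 0.262). The scramble libraries of 22Rv1 against those of C4-2 gave 2 genes higher and 3 lower, where 65.2% passed (35.5% higher and 29.8% lower). REL was higher in 22Rv1 by 2.33 ± 0.17 (adjusted p = 4.31e-05) and NFKB2 by 0.77 ± 0.18 (adjusted p = 0.00893), while NFKBIA (−1.001 ± 0.097, adjusted p = 0.000143), NFKB1 (−0.62 ± 0.11, adjusted p = 0.00225) and RELA (−0.43 ± 0.14, adjusted p = 0.0334) were lower. The RELA call was lost with total counts (adjusted p = 0.0911) and the replicate block (0.0856), and without 22Rv1 scramble 2 (0.225) or C4-2 scramble 2 (0.0649).

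The control levels of one line were not the same in the 2 experiments, and PC3 stood out. RELB averaged 63.2 ± 2.89 CPM with DMSO and 3.92 ± 0.9101 CPM with scramble (SD, n = 2 each), 16.1-fold apart. NFKBIA averaged 524 ± 1.21 CPM with DMSO and 45.7 ± 5.74 CPM with scramble, 11.4-fold apart. BCL3 averaged 45.9 ± 0.307 CPM with DMSO and 7.18 ± 1.38 CPM with scramble, and NFKB2 138 ± 1.699 CPM with DMSO and 25.3 ± 6.56 CPM with scramble. Over the 10 genes, the ratio of DMSO to scramble in PC3 had a median of 3.88 and a range of 0.762 (REL) to 16.1, and 8 genes were above 2. In 22Rv1 the ratio had a median of 1.12 and lay between 0.615 (TNFAIP3) and 1.37 (BCL3). In LNCaP it had a median of 0.598 and lay between 0.372 (NFKB2) and 3.4 (REL). The tables come from separate experiments scaled apart, so these ratios are descriptions without a test. PC3 markers also differed between the experiments, with lower levels in the DMSO libraries: the summed CPM of 4 of them was 1694 and 1673 with DMSO and 2723 and 2605 with scramble. The mean TMM-scaled CPM with DMSO and with scramble was 153 and 629 for CAV1, 80.8 and 246 for ANXA1, 253 and 326 for CD44, and 1197 and 1533 for VIM. What lies behind these differences was not tested.

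**Figure D5:**
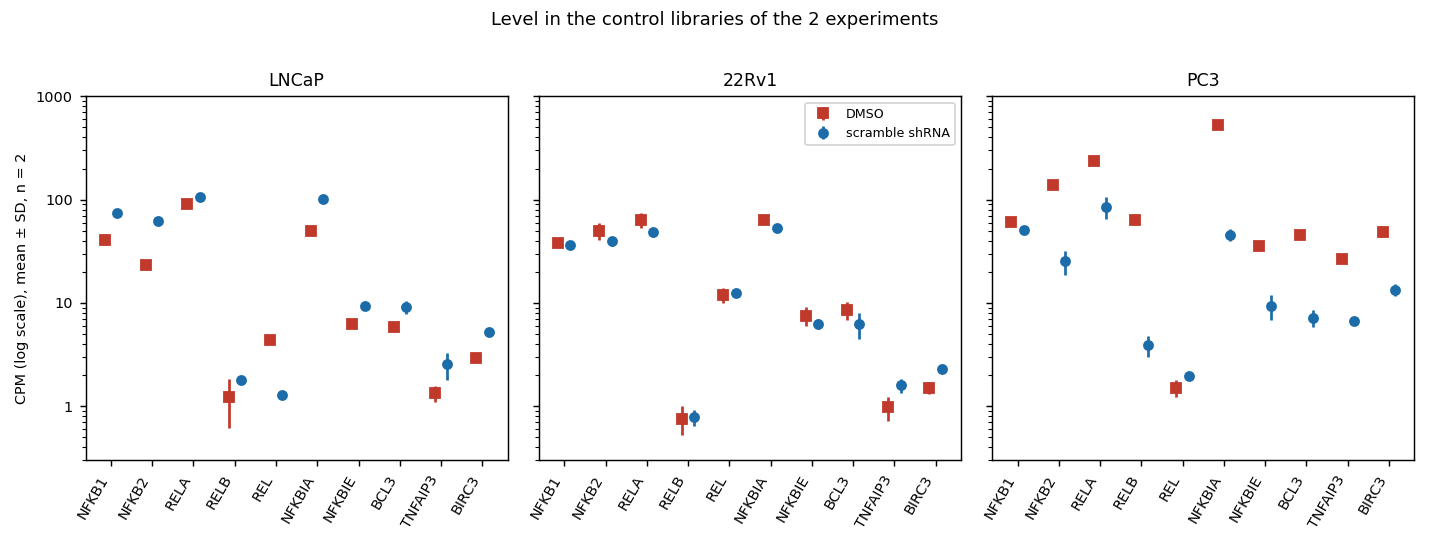
Mean CPM (log scale, ± SD, n = 2) of the 10 genes in the DMSO libraries (red squares) and the scramble libraries (blue circles) of LNCaP, 22Rv1 and PC3. In PC3, 8 of the 10 red squares lie more than 2-fold above the blue circles, with NFKBIA at 524 against 45.7 CPM, whereas in 22Rv1 the symbols lie close together.

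Other genes of the pathway were read in lists, against the same shares of all genes, higher and lower. With shCSN5 these were 18.3% and 17.4% in LNCaP, 15.7% and 16.2% in C4-2, 22.6% and 21.3% in 22Rv1, and 10.3% and 6.41% in PC3. With CSN5i-3 they were 26.2% and 26.5% in LNCaP, 11.8% and 12.2% in 22Rv1, and 38.5% and 38.5% in PC3. For the titled C4-2 pair they were 37% and 37.9%. Several list counts lay near or below these shares. The median log2 fold change of all genes ran over −0.043 to 0.036. The first list was the remaining IkB proteins and IkB kinases (12 genes). With shCSN5 the counts were 3 higher of 12 in LNCaP, 4 higher of 12 in C4-2, 8 higher of 12 in 22Rv1 and 1 higher of 12 in PC3, and with CSN5i-3 9 higher of 12 in LNCaP, 2 higher and 1 lower of 12 in 22Rv1 and 7 higher and 4 lower of 12 in PC3, while the libraries titled C5i against those titled NT gave 7 higher and 2 lower of 12. The median log2 fold change of the list ran over 0.14 to 0.84. MAP3K14, the kinase NIK of the noncanonical pathway, had 66.9 and 67.4 CPM in LNCaP with CSN5i-3 and 14.004 and 16.1 CPM with DMSO (2.16 ± 0.091, adjusted p = 3.43e-06). It also rose in the titled C5i libraries (1.398 ± 0.086, adjusted p = 6.89e-08), in 22Rv1 with CSN5i-3 (1.096 ± 0.28, adjusted p = 0.034) and with shCSN5 in C4-2 (1.28 ± 0.15, adjusted p = 0.000739) and 22Rv1 (1.01 ± 0.14, adjusted p = 0.000209). NFKBIZ, an atypical nuclear IkB protein, rose in 22Rv1 with either treatment, to 98.1 and 99.3 CPM with CSN5i-3 against 26.8 and 24.98 CPM with DMSO (1.93 ± 0.15, adjusted p = 0.000924), and to 156 and 161 CPM with shCSN5 against 41.7 and 46.4 CPM with scramble (1.85 ± 0.086, adjusted p = 8.68e-08). In PC3 NFKBIZ rose with shCSN5 (0.93 ± 0.13, adjusted p = 0.0148) and fell with CSN5i-3 (−0.28 ± 0.036, adjusted p = 4.13e-10), and the CSN5i-3 effect minus the shCSN5 effect was −1.14 ± 0.13 (adjusted p = 0.000532). IKBKE, a noncanonical IkB kinase, fell in PC3 with CSN5i-3 (−1.01 ± 0.054, adjusted p = 2.18e-24) and was lower in the titled C5i libraries (−1.63 ± 0.13, adjusted p = 7.42e-07).

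Receptors and adaptors upstream formed the second list (21 genes). With shCSN5 the counts were 6 higher and 1 lower of 19 in LNCaP, 5 higher of 19 in C4-2, 9 higher and 3 lower of 20 in 22Rv1 and 1 higher of 21 in PC3, and with CSN5i-3 12 higher and 2 lower of 19 in LNCaP, 3 higher and 2 lower of 19 in 22Rv1 and 12 higher and 5 lower of 21 in PC3, while the libraries titled C5i against those titled NT gave 10 higher and 6 lower of 20. Its median ran over 0.13 to 0.499. TNFRSF12A, the receptor of the cytokine TWEAK, was among the genes that rose. It had 272 and 261 CPM in LNCaP with CSN5i-3 and 17.9 and 21.7 CPM with DMSO (3.75 ± 0.104, adjusted p = 6.53e-07). In 22Rv1 it had 108 and 60.7 CPM with CSN5i-3 and 7.499 and 9.93 CPM with DMSO (3.27 ± 0.33, adjusted p = 0.00159). The titled C5i libraries had 381 and 425 CPM, against 30.8 and 26.1 CPM in those titled NT (3.82 ± 0.101, adjusted p = 1.14e-10). With shCSN5 it rose in LNCaP (1.94 ± 0.25, adjusted p = 0.00266), C4-2 (1.42 ± 0.15, adjusted p = 0.00051) and 22Rv1 (2.75 ± 0.18, adjusted p = 8.1e-07). IL1R1, the signalling receptor of interleukin-1, fell in 22Rv1 with CSN5i-3 (−1.01 ± 0.19, adjusted p = 0.0125) and shCSN5 (−0.45 ± 0.13, adjusted p = 0.0137) and in LNCaP with CSN5i-3 (−0.58 ± 0.087, adjusted p = 0.00126). TAB1, a partner of the kinase TAK1, fell with shCSN5 in LNCaP (−1.08 ± 0.22, adjusted p = 0.0129) and with CSN5i-3 in PC3 (−0.78 ± 0.046, adjusted p = 9.96e-23). TRAF1, an adaptor and NF-kB target, had 1168 counts over the 2 libraries titled C5i and 10 over those titled NT (7.12 ± 0.21, adjusted p = 2.6e-10).

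Other feedback and ubiquitin-editing genes made up the third list (13 genes). With shCSN5 the counts were 6 higher of 12 in LNCaP, 3 higher and 1 lower of 12 in C4-2, 7 higher and 1 lower of 12 in 22Rv1 and 3 higher of 12 in PC3, and with CSN5i-3 8 higher of 12 in LNCaP, 2 higher of 12 in 22Rv1 and 11 higher and 1 lower of 12 in PC3, while the libraries titled C5i against those titled NT gave 10 higher of 12. Its median ran over 0.27 to 0.87. RNF11 and TAX1BP1, partners of A20, rose in LNCaP shCSN5 cells (1.37 ± 0.14, adjusted p = 0.00119 and 1.16 ± 0.15, adjusted p = 0.00268) and in 22Rv1 with CSN5i-3 (1.13 ± 0.15, adjusted p = 0.00394 and 1.08 ± 0.15, adjusted p = 0.00468). CYLD, a deubiquitinase that restrains the pathway, was higher in the titled C5i libraries (1.68 ± 0.091, adjusted p = 2.5e-08). OTULIN, which removes linear ubiquitin chains, fell with shCSN5 in C4-2 (−0.74 ± 0.11, adjusted p = 0.00251) and 22Rv1 (−0.42 ± 0.091, adjusted p = 0.00327). ZC3H12A, an RNase that degrades inflammatory transcripts, fell in PC3 with CSN5i-3, to 34.4 and 37.7 CPM against 139.7 and 139.6 CPM with DMSO (−1.96 ± 0.037, adjusted p = 1.61e-46). The ubiquitin ligases of the pathway (14 genes) formed a further list. Their counts with shCSN5 were 3 higher of 14 in LNCaP, 1 higher of 14 in C4-2, 3 higher and 2 lower of 14 in 22Rv1 and 0 higher and 1 lower of 14 in PC3, and with CSN5i-3 4 higher and 1 lower of 14 in LNCaP, 1 higher of 14 in 22Rv1 and 9 higher and 4 lower of 14 in PC3, while the libraries titled C5i against those titled NT gave 9 higher and 3 lower of 14. Their median ran over −0.074 to 0.31. RBCK1, a subunit of the linear ubiquitin ligase, rose with CSN5i-3 in PC3 (1.47 ± 0.023, adjusted p = 8.69e-51) and LNCaP (1.11 ± 0.10, adjusted p = 0.000112). FBXW11, a β-TrCP protein that recognises phosphorylated IkB, fell with shCSN5 in 22Rv1 (−0.67 ± 0.083, adjusted p = 7.94e-05), and BTRC, the other one, rose with CSN5i-3 in PC3 (1.09 ± 0.048, adjusted p = 1.57e-28).

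Further NF-kB target genes formed the last list (22 genes), many of them too low to be tested in some lines. With shCSN5 the counts were 8 higher of 14 in LNCaP, 5 higher of 9 in C4-2, 5 higher of 10 in 22Rv1 and 12 higher of 18 in PC3, and with CSN5i-3 10 higher and 1 lower of 13 in LNCaP, 5 higher of 10 in 22Rv1 and 6 higher and 14 lower of 21 in PC3, while the libraries titled C5i against those titled NT gave 10 higher and 4 lower of 15. In PC3 the list thus had 12 higher with shCSN5, where 10.3% of all genes were higher, and 14 lower with CSN5i-3, where 38.5% were lower. Its median was 1.03 with shCSN5 (all genes 0.036) and −0.38 with CSN5i-3 (all genes −0.007). Of the chemokine genes, CXCL8 had 120.1 and 107 CPM with shCSN5 and 16.3 and 14.2 CPM with scramble (2.89 ± 0.13, adjusted p = 0.0022), and CXCL3 had 21.9 and 20.6 CPM with shCSN5 and 2.695 and 2.57 CPM with scramble (3.01 ± 0.16, adjusted p = 0.00255). With CSN5i-3, CXCL8 also rose, to 1568 and 1555 CPM against 785 and 778 CPM with DMSO (0.999 ± 0.022, adjusted p = 1.72e-43). CXCL1, however, fell to 86.1 and 79.2 CPM with CSN5i-3, against 507 and 507 CPM with DMSO (−2.61 ± 0.029, adjusted p = 5.11e-58). With shCSN5 it rose by 2.04 ± 0.14 (adjusted p = 0.00311), and the CSN5i-3 effect minus the shCSN5 effect was −4.59 ± 0.12 (adjusted p = 9.13e-07). PLAU, the urokinase gene, fell likewise, to 519 and 526 CPM with CSN5i-3 against 1463 and 1451 CPM with DMSO (−1.48 ± 0.022, adjusted p = 1.71e-51). IRF1, a transcription factor of interferon responses, rose in LNCaP with CSN5i-3 (2.95 ± 0.094, adjusted p = 1.01e-06) and shCSN5 (2.38 ± 0.16, adjusted p = 0.000309), in C4-2 with shCSN5 (2.01 ± 0.23, adjusted p = 0.000622), in PC3 with CSN5i-3 (1.88 ± 0.030, adjusted p = 1.72e-50) and in the titled C5i libraries (3.34 ± 0.101, adjusted p = 2.95e-10). IL32, a cytokine gene, had 55.4 and 56.4 CPM in LNCaP with CSN5i-3 and 2.999 and 3.01 CPM with DMSO (4.22 ± 0.092, adjusted p = 4.24e-07). In 22Rv1 shCSN5 cells CXCL8 had 89 counts over 2 libraries, against 3 with scramble, a ratio of 28.2 with an exact counting interval of 9.35 to 140.0.

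Leukocyte markers, read because NF-kB genes are abundant in blood cells, were summed per library over library totals. The summed level over 7 genes was 1000.5 and 818 CPM in LNCaP shCSN5 libraries, against 443.8 and 452 CPM with scramble, and 418 and 428 CPM in C4-2 shCSN5 libraries, against 304 and 286 CPM with scramble. It was 306 and 310 CPM in LNCaP with CSN5i-3, against 553 and 505 CPM with DMSO, and 148 and 145 CPM in the libraries titled C5i, against 207 and 223 CPM in those titled NT. In PC3 it was 107 and 111 CPM with CSN5i-3, against 81.3 and 80.3 CPM with DMSO. LCP1, an actin-bundling protein gene, made up 65.8% to 99.9% of the sum in these libraries. CD68, a macrophage marker, rose by 6.26 ± 0.15 (adjusted p = 4.96e-07) in LNCaP with CSN5i-3 and by 2.93 ± 0.100 (adjusted p = 6.76e-10) in the libraries titled C5i, where the sum was lower. It also rose where the sum was higher, in C4-2 with shCSN5 (1.82 ± 0.39, adjusted p = 0.0104) and in PC3 with CSN5i-3 (0.67 ± 0.21, adjusted p = 0.00352). In LNCaP with shCSN5 the CD68 estimate of 0.795 ± 0.51 (adjusted p = 0.267) did not pass the test. Other markers of the list went down: CORO1A fell with CSN5i-3 in PC3 (−3.94 ± 0.198, adjusted p = 8.14e-26) and LNCaP (−0.88 ± 0.30, adjusted p = 0.0448). CORO1A was also lower in the libraries titled C5i (−2.14 ± 0.24, adjusted p = 8.63e-06). LCP1 fell in LNCaP with CSN5i-3 (−0.79 ± 0.062, adjusted p = 5.99e-05) and rose there with shCSN5 (1.07 ± 0.14, adjusted p = 0.00295). In the LNCaP shRNA libraries PTPRC, CD3E and MS4A1, which define leukocytes, T cells and B cells, had no counts, and the LNCaP and C4-2 inhibitor tables do not list them. PTPRC was counted in other lines, at up to 2.46 CPM. It rose with shCSN5 in PC3 (2.23 ± 0.22, adjusted p = 0.00663) and 22Rv1 (2.51 ± 0.55, adjusted p = 0.00359). In 22Rv1 with CSN5i-3 it also rose, to 73 counts against 3 with DMSO (4.49 ± 0.46, adjusted p = 0.00175). The part of these markers in the results was not tested.

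The genes whose pattern over the 8 comparisons was most like the mean profile of the 10 genes were sought among 3963 others whose log2 fold changes had an SD of at least 0.5. They were TRAF1 (r = 0.955), SNAI2 (0.953), FTH1 (0.923), SELENOM (0.916) and CCDC50 (0.909). FTH1, the ferritin heavy chain gene, had log2 fold changes of 2.58 in the titled C4-2 pair, 2.06 in LNCaP with CSN5i-3 and 1.003 in PC3 with shCSN5, and of 0.12 to 0.69 in the others. CCDC50 lay between 0.14 (22Rv1 shCSN5) and 1.75 (the titled pair). SNAI2 followed the order of the comparisons and not the direction, with 1.93 in LNCaP with CSN5i-3 and −1.89 in 22Rv1 with shCSN5. Without the titled C4-2 pair the first 5 of 3302 genes were SNAI2 (0.952), TRAF1 (0.937), ATG9B (0.925), NEAT1 (0.924) and FTH1 (0.923). With that pair grouped by description they were NEAT1 (0.990), BBC3 (0.987), CCDC50 (0.984), INTS6 (0.983) and VEGFA (0.982) of 5408 genes, and SNAI2 stood at 0.383. These correlations are over 7 or 8 comparisons, were picked as the highest of many, and are a description.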

How the data were processed

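RNA-seq counts were analysed for 32 libraries in 16 groups of 2, from 4 cell lines. Per the labels' protocols, total RNA was extracted with a Direct-Zol kit and sequenced as Illumina libraries. The deposited values are raw read counts per gene in 6 tables, and Partek is named in the submitters' processing notes. Not given in the sources used here are the aligner, annotation, genome build and strand setting, so reads of a gene and of an overlapping antisense transcript cannot be told apart. Where a table gave Ensembl IDs, these were paired with symbols through a reference table, for 89.6% of rows. The LNCaP and C4-2 inhibitor tables give symbols only. There symbols were checked against the reference and older ones updated, with a match for 78.1% (LNCaP) and 98.1% (C4-2) of rows. All 10 genes matched in every table. Of the 6 tables, 2 list only genes that reach 3 counts in some library, and 1 row without a gene name was left out.

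Counts were filtered with filterByExpr (minimum count 10), scaled by TMM and tested with the quasi-likelihood test of edgeR 4.0.16 in R 4.3.3, each treatment against its own control on 4 libraries (2 residual degrees of freedom). Differences between lines or between inhibitor and knockdown are interaction terms over 8 libraries, or over 16 for the 4 lines. P-values were Benjamini-Hochberg adjusted over all genes tested, with a threshold of 0.05. The SE of a log2 fold change is its size divided by the square root of the F statistic. CPM divide counts by the TMM-scaled library size within a comparison (marker genes: by library total), and levels per kilobase divide by the union of GENCODE exons. Intervals on ratios of low counts are exact 95% intervals and cover counting error only. Alternatives were total counts, DESeq2 1.42.0, no filter, a replicate block, a spread shared by the knockdown libraries, and leaving out each library. The script for the test was tested on simulated data. Named genes were all 10 members, COPS5, up to 2 higher and 2 lower genes per list and comparison by smallest adjusted p at a mean of at least 1 CPM, and the 5 nearest patterns. Genes named further within a list, and the low-count ratios, follow the same lists. The members and lists were chosen with earlier results of these data known. Grouping of the C4-2 inhibitor libraries is by title, and tallies without that pair or with it grouped by description were added after seeing the data.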

Additional observations from a re-analysis of the deposited data

Results flagged for a closer look

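Among the 10 genes, 13 results were picked out because an effect of the same treatment differed between cell lines by a test of the difference itself. For CSN5i-3 at 5 µM, the effect in LNCaP minus that in 22Rv1 was 1.27 for NFKBIA (log2 scale) and 1.18 for NFKBIE, across separate tables. NFKBIA was higher than DMSO in both LNCaP libraries, as were 38.7% of all genes tested. It was lower in both 22Rv1 libraries, as were 33.2% of all genes, and the 22Rv1 change did not pass the test. For shCSN5, the effect in 22Rv1 minus that in C4-2 was −1.90 for BIRC3 and −0.76 for NFKBIA. The shCSN5 effect in PC3 minus that in LNCaP was 0.91 for BIRC3, −1.14 for NFKB1 and 1.19 for REL. The joint test of the shCSN5 effect over the 4 lines, also across separate tables, gave an adjusted p (edgeR) of 0.00039 for BIRC3, 4.78e-05 for NFKB1, 0.0365 for NFKB2, 1.09e-06 for NFKBIA, 0.00156 for REL and 0.00472 for TNFAIP3. Sample sizes are 2 libraries per group, and no explanation of these differences was tested.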

How the results depend on the processing

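Of the 8 BIRC3 results against a control, each kept its direction and its side of the threshold under every alternative. Over all results of the 10 genes that passed the test, total counts in place of TMM ended 2 calls, DESeq2 7, no filter 4, the replicate block 6 and the shared knockdown spread 1, and leaving out 1 library at a time ended 68 and kept 492. For shCSN5 in C4-2 the count of changed members was 4, and 2 with DESeq2 and 1 without the filter. For shCSN5 in PC3 it was 5, and 8 without the filter, with the replicate block and with the shared spread. Leaving out 1 library at a time gave 2 to 9 for shCSN5 in LNCaP (7 with all libraries), 1 to 3 in C4-2, 4 to 8 in PC3, 1 to 4 for PC3 minus LNCaP (3), 1 to 4 for CSN5i-3 in LNCaP minus 22Rv1 (2), and, for inhibitor minus knockdown, 2 to 6 in LNCaP (3), 0 to 1 in 22Rv1 (1) and 1 to 4 in PC3 (2). In such fits the lone library of a group is assumed to vary like the other group.

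The labels do not say that a replicate number pairs libraries. Deviations of same-numbered libraries correlated between −0.642 (CSN5i-3 in 22Rv1) and 0.542 (shCSN5 in PC3), with 0.303 for shCSN5 in 22Rv1 and −0.38 for shCSN5 in C4-2. With the replicate block the count was 1 for CSN5i-3 in LNCaP minus 22Rv1, 4 for inhibitor minus knockdown in PC3, and 0 in 22Rv1 (edgeR; 1 of 10 at an unadjusted p under 0.05, and 1 by DESeq2). Over all genes the block gave 8180 in place of 2578 for shCSN5 in PC3, 1237 in place of 2262 for 22Rv1 minus C4-2, 763 in place of 2817 for LNCaP minus 22Rv1, and, for inhibitor minus knockdown, 2413 in place of 3787 in LNCaP, 19 in place of 730 in 22Rv1 and 10074 in place of 6559 in PC3. Without the filter the counts over all genes were 3139 in place of 4754 (shCSN5, C4-2), 4273 in place of 2578 (shCSN5, PC3) and 2028 in place of 730 (inhibitor minus knockdown, 22Rv1), and the shared spread gave 4304 for shCSN5 in PC3. The cause was not tested.

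Signs that turned belong to estimates that had not passed the test. NFKB1 in PC3 shCSN5 became 0.0071 with total counts, and NFKB2 in 22Rv1 CSN5i-3 became 0.0162 with DESeq2. On leaving out 1 library, the estimate ran from −0.103 to 0.372 for RELA in LNCaP shCSN5, −0.137 to 0.263 for NFKB2 and −0.061 to 0.302 for REL in C4-2 shCSN5, −0.015 to 0.111 for NFKB1 in 22Rv1 shCSN5, −0.309 to 0.14 for RELA in PC3 shCSN5, and, in 22Rv1 CSN5i-3, −0.034 to 0.113 for NFKB1, −0.231 to 0.196 for NFKB2, −0.343 to 0.005 for REL and −0.0501 to 0.501 for RELA. Total counts moved the share of higher genes among those that passed to 73.7%, in place of 61.5%, for shCSN5 in PC3 (48.6% with DESeq2), and shifted the median of all genes by −0.193 for the titled C4-2 pair, −0.108 for LNCaP CSN5i-3, 0.169 for PC3 minus LNCaP, −0.143 for inhibitor minus knockdown in PC3 and 0.108 for scramble 22Rv1 against C4-2. That share was 61.1% in place of 45.7% for PC3 minus LNCaP, 57.9% in place of 41.6% for 22Rv1 minus C4-2, and 44.3% in place of 55.6% and 38.8% in place of 52.5% for inhibitor minus knockdown in 22Rv1 and PC3. Low counts limit RELB, TNFAIP3 and REL in several lines, and 2 libraries per group limit every test.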
